A study of Mus musculus with 10 samples.

Results

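Mtf2 and H3K27me3 ChIP-seq peaks were compared within WT pro-erythroblasts, the CD71+Ter119-/lo fraction of e14.5 mouse fetal liver (FL). The members were all autosomal peaks of both deposited lists, 25805 for Mtf2 and 4695 for H3K27me3, which is 30500 of the 50907 peaks in the series. A peak was called shared when it held at least 1 base in common with a peak of the other list, and otherwise Mtf2 only or H3K27me3 only. The choice used position alone and no peak height.

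PRC2 is the enzyme complex that methylates lysine 27 of histone H3, and its trimethylated product, H3K27me3, marks repressed genes in many cell types. Mtf2, also called Pcl2, is a Polycomb-like accessory subunit of PRC2 with a Tudor domain, PHD fingers and a DNA-binding region that favours unmethylated CpG-rich DNA. Promoters of developmental transcription factors in CpG islands, which are stretches rich in unmethylated CpG, are the best known place of H3K27me3 outside the cell type in which those factors act. Pro-erythroblasts are the first recognisable red cell precursors, and the FL is where they form in the fetus.

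The 3 libraries came from the same kind of sample, sorted C57Bl/6 WT cells crosslinked with formaldehyde, with no transgene or deletion. They were immunoprecipitated with an anti-Pcl2 antibody, an anti-H3K27me3 antibody or rabbit IgG. Each condition had 1 library, so no spread between replicates could be given, and no value below carries a test. Both peak lists were called against the same IgG library, so whatever raised or lowered IgG at a locus entered both. The series' description names H3K4me3 in its opening line, whereas its later lines and the sample labels name H3K27me3, and the library was taken as H3K27me3.

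The Mtf2 library held 83941685 tags, of which 29009650 (34.6%) remained after duplicates at the same position were removed. For H3K27me3 the figures were 23465456 and 18945784 (80.7%), and for IgG 22370612 and 16898992 (75.5%). A deeper library reaches the threshold at a smaller enrichment, so the sizes of the lists cannot be compared as amounts of binding. The false discovery rate (FDR), which MACS took from peaks of IgG called over ChIP, was at most 5% for every autosomal Mtf2 peak and for 1 autosomal H3K27me3 peak. Its median was 10.3% for shared H3K27me3 peaks and 11.8% for H3K27me3-only peaks. Single H3K27me3 peaks are therefore uncertain, and not only those of few tags. Among the 8 shared H3K27me3 peaks of highest score, the FDR was 0% downstream of Cdkn1a. For the rest of these it ran from 30% near Cr2 to 100% near Cdh20. Peak lists hold no RNA, so the cell type could be looked at only through peaks at marker genes. Of the 6 genes in each marker list for other cells, H3K27me3 lay within 5 kb of a TSS at 1 macrophage gene (Cd14), 2 megakaryocyte genes (Itga2b and Gp1bb) and no hepatocyte or lymphoid gene, and Mtf2 at 1 hepatocyte gene (Afp). Over gene bodies Mtf2 lay at 3 macrophage genes, 1 hepatocyte gene and 1 lymphoid gene, and H3K27me3 at 1 macrophage and 1 megakaryocyte gene. Of all genes, 3.39% had H3K27me3 and 8.34% Mtf2 within 5 kb, and 6.41% and 18.2% over gene bodies. Counts out of 6 genes are too small to set against these shares.

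Sequence was read around the summits of the highest-scoring peaks, on NCBIM37 (the assembly of mm9), since the comparison turned on which DNA carried both marks. The first set shows that the same DNA occurred at Mtf2 summits of shared and of Mtf2-only peaks. A stretch of 101 bases at the summit of the Mtf2 peak near Ets1 had an identical copy near Hsfy2 and a copy with 8 mismatches near Stmn4. Capitals mark CpG. All 3 stretches were intergenic.
near Ets1, Mtf2 summit of a shared peak, chr9:32652840-32652940, plus strand: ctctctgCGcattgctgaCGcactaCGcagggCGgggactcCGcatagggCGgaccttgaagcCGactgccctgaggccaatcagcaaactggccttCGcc
near Hsfy2, Mtf2 only, chr1:56830126-56830226, minus strand: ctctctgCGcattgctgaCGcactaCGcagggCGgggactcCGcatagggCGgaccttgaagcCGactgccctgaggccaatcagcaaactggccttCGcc
near Stmn4, Mtf2 only, chr14:67082618-67082718, minus strand: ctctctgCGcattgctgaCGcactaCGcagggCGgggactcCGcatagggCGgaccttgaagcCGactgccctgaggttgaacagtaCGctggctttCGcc
The H3K27me3 peak within the Ets1 Mtf2 peak had its summit 3147 bp from the Mtf2 summit and lay outside the stretch shown, and the Hsfy2 and Stmn4 peaks held none. Their Mtf2 values were alike, with 410, 426 and 410 tags and scores (10 times the negative log10 of the peak's p) of 1472, 1306 and 1242 in that order.

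The second set crosses the other class border. The stretch at the Mtf2 summit near Tbca was identical near Lnp, where both marks lay 12 bp apart, and had 7 mismatches in an intron of Dcdc2c, where H3K27me3 was called without Mtf2. Capitals again mark CpG.
near Tbca, Mtf2 summit of a shared peak, chr13:95512359-95512459, plus strand: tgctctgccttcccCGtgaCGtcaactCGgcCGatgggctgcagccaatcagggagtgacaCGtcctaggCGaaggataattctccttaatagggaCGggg
near Lnp, both marks, chr2:74282665-74282765, plus strand: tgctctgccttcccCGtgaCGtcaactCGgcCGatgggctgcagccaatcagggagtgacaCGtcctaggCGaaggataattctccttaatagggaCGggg
Dcdc2c, H3K27me3 only, chr12:29150078-29150178, plus strand: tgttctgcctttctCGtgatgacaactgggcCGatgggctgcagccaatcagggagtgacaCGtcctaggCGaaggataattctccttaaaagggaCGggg
The H3K27me3 peak closest to the Tbca summit, chr13:95511651-95512250, ended before the stretch shown. Mtf2 had 424 tags near Tbca and 432 near Lnp. The H3K27me3 peak in Dcdc2c was 425 bp long, with 19 tags and a fold enrichment over IgG of 16.8. Its summit lay 82.1 kb downstream of the nearest TSS. Which copy of a repeated sequence gave the tags cannot be told apart from peak lists.

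The last set shows the ends of the range, the highest-scoring H3K27me3 peak of all and a promoter peak without Mtf2. The stretch downstream of Cdkn1a is a tandem repeat, in which a 401-base window matched itself at 87.3% of positions when shifted by 23 bases. The stretch at Isl2 was single copy. Capitals mark CpG.
downstream of Cdkn1a, both marks, chr17:29241237-29241337, plus strand: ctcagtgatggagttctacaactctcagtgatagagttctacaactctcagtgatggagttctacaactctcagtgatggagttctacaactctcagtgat
Isl2, H3K27me3 only, chr9:55390875-55390975, plus strand: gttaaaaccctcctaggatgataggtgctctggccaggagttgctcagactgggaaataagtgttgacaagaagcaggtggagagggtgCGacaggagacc
The copy number of all peaks is given below.

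By an overlap of 1 base, shared peaks were a larger part of the H3K27me3 list than of the Mtf2 list. Of the 4695 H3K27me3 peaks, 2716 were shared (57.8%, 95% Wilson interval 56.4 to 59.3) and 1979 were H3K27me3 only. Of the 25805 Mtf2 peaks, 2535 were shared (9.82%, 9.47 to 10.2) and 23270 were Mtf2 only. The H3K27me3 share depended on the overlap rule. It was 33.0% where the Mtf2 summit had to lie in the peak, 36.2% with lists of equal length and 41.6% with 500 bp around each summit. In an even grid of 1 kb windows, 1 every 1 Mb of autosome, Mtf2 peaks overlapped 2.52% of 2382 windows and H3K27me3 peaks 0.42%. The grid does not match the lists in copy number, which is defined below. Copy numbers of 10 or more were found in 7.98% of grid windows, 60.4% of H3K27me3 summits and 81.7% of Mtf2 summits. The grid values are therefore no measure of the overlap to be expected of lists in repeated DNA. Mtf2 peaks covered 50.04 Mb (2.02% of the autosomal assembly) and H3K27me3 peaks 4.44 Mb (0.180%). The lists had 2.70 Mb in common, which was 60.8% of the H3K27me3 bases and 5.40% of the Mtf2 bases. These intervals cover counting error only, and copies of the same sequence are not independent of each other.

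Where the lists met, the H3K27me3 peak was mostly inside the Mtf2 peak. Of the 2716 shared H3K27me3 peaks, 1934 (71.2%) were wholly inside a Mtf2 peak, 2592 met exactly 1 Mtf2 peak and 124 met 2 or more. On the other side, 272 Mtf2 peaks held 2 or more H3K27me3 peaks, and the most in 1 peak was 5, in an intron of Lphn3. Shared Mtf2 peaks had a median length of 2621 bp against 1364 bp for Mtf2 only. The share of peaks of at least 5 kb was 19.8% (501 peaks) and 3.95% (919 peaks). For H3K27me3 the medians were 958.5 bp when shared and 698 bp alone. In both lists, then, the longer peaks were the shared ones.

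The stronger peaks of each list were more often shared. In deciles of the H3K27me3 list by score, 46.8% of the lowest and 86.8% of the highest (scores 84.3 to 330) overlapped a Mtf2 peak, with the smallest share, 42.9%, in decile 2. In the Mtf2 list the share was 2.71% in the lowest decile and 41.1% in the highest (scores 288 to 1996). Median tags were 26 for shared and 19 for H3K27me3-only peaks, and 123 for shared and 58 for Mtf2-only peaks. Fold enrichment differed less, with medians of 9.56 and 9.14 for H3K27me3 and 10.9 and 8.57 for Mtf2. A long peak has more bases to be overlapped, and in both lists shared peaks had the higher median length and the higher median score. The parts of length and score in the overlap were not tested.

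**Figure D1:**
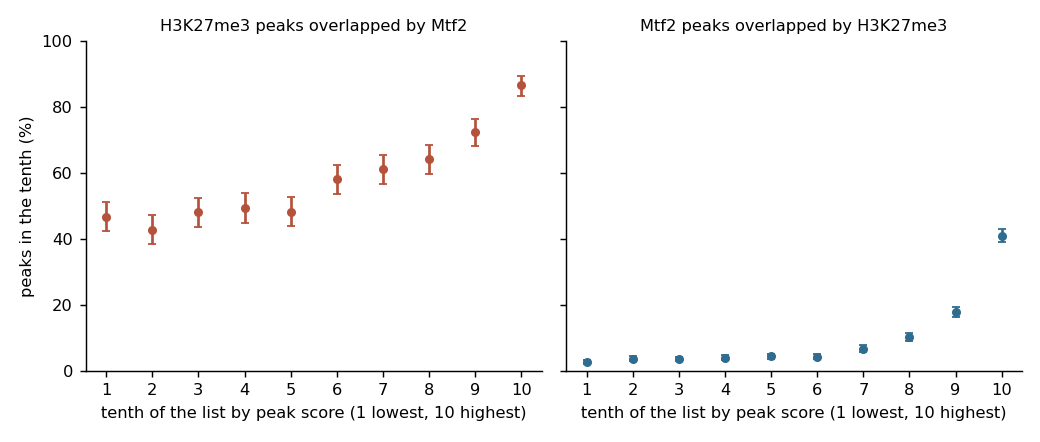
Share of H3K27me3 peaks overlapped by Mtf2 and of Mtf2 peaks overlapped by H3K27me3 (y axis, percent of peaks) in deciles of each list by peak score (x axis), with 95% Wilson intervals as bars. The share goes from 46.8% to 86.8% in the H3K27me3 list and from 2.71% to 41.1% in the Mtf2 list.

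The heights of overlapping peaks were weakly related. Over the 2716 pairs of a shared H3K27me3 peak and the Mtf2 peak it met, or the closest summit where it met several, Spearman's rho was 0.294 for tags (Pearson's r 0.316), 0.144 for score (0.177) and 0.379 for fold enrichment (0.466). Both values of a pair share the IgG library, the locus and its copy number, and the values are a description over peaks of 1 library each. The highest-scoring peak of each list after Cdkn1a gives the values side by side, which come from libraries of unlike depth and are not compared. The H3K27me3 peak near Cdh20 at chr1:105102985-105105003 had 64 tags, a score of 221 and an FDR of 100%. The Mtf2 peak around it, chr1:105101345-105109214, had 415 tags and a score of 1455. In Lphn3, a latrophilin adhesion receptor gene, the Mtf2 peak with the highest score of the list, chr5:81806697-81814072, reached 488 tags with a score of 1996 and was 40.6-fold enriched. The H3K27me3 peak nearest its summit had 58 tags and a score of 62.3.

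Shared peaks lay in repeated DNA. The genome copy number of a summit was taken as the median count of 25-base words in the 1 kb around it, counted over the whole assembly on both strands. Its median was 673 for shared H3K27me3 peaks and 1 for H3K27me3-only peaks. The share of summits at a copy number of 10 or more was 89.4% (2428 of 2716, 88.2 to 90.5) and 20.6% (407 of 1979, 18.8 to 22.4), against 7.98% of grid windows. Mtf2 peaks were high in both classes, at 88.4% (2242 of 2535) when shared and 81.0% (18839 of 23270) alone. Single copy means a copy number of 1 here. It was found at 63.6% of H3K27me3-only, 5.89% of shared H3K27me3 and 12.8% of Mtf2-only summits and in 87.8% of grid windows. Such a window can still hold repeated words, since the number is a median of exact matches. Over all H3K27me3-only windows the median part of words at 10 copies or more was 26.5%, against 2.04% in grid windows. For words found once it was 61.2%, against 93.9%. The H3K27me3-only peak in Dcdc2c, whose stretch is printed above, had a copy number of 1.

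**Figure D2:**
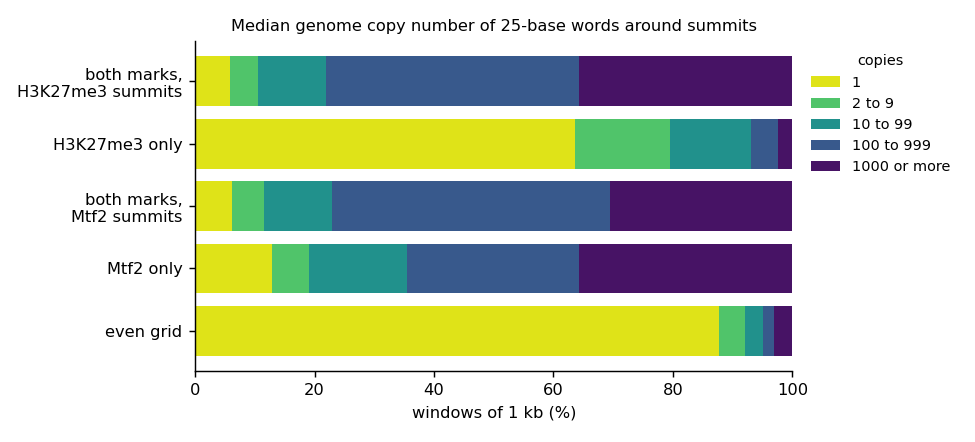
Median genome copy number of 25-base words around summits, as the percent of 1 kb windows (x axis) in each copy range (colours), for the classes and the even grid (rows). The H3K27me3-only row is mostly single copy (63.6%), whereas 89.4% of shared H3K27me3 windows and 81.0% of Mtf2-only windows sit at 10 copies or more.

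The share of H3K27me3 peaks that met Mtf2 went up with copy number. Of 1419 H3K27me3 peaks at single-copy summits, 160 (11.3%) were shared. The share was 29.0% over 1 and under 10 copies, 53.4% from 10 to under 100, 92.6% from 100 to under 1000 and 95.5% at 1000 or more. In the Mtf2 list the same ranges gave 4.97%, 8.64%, 7.02%, 14.99% and 8.49%, with no steady rise. GC content was no simple guide. The share of H3K27me3 peaks that met Mtf2 was 37.4% in the lowest decile by GC, 70.4% in decile 5 and 32.3% in the highest. How the aligner treated reads with several equal placements is not given in the sources used here, and neither library's counts at a repeat are counts of 1 locus.

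Many of the repeated windows were copies of each other. Windows of 1 kb around H3K27me3 summits were grouped when they had at least 250 of 977 words in common with a representative window, which gave 34 groups of 10 or more. These held 1949 shared H3K27me3 peaks (71.8%) and 65 H3K27me3-only peaks (3.28%). Matched to the same groups, 1686 shared Mtf2 peaks (66.5%), 10433 Mtf2-only peaks (44.8%) and 67 grid windows (2.81%) were members. The largest group had 363 H3K27me3 windows on all 19 autosomes, and Mtf2 overlapped every one of them. Of the 451 Mtf2 windows with that sequence, 221 (49.0%) overlapped an H3K27me3 peak. The third and the fifth group, with 149 and 109 H3K27me3 windows, also overlapped Mtf2 throughout. The Ets1, Hsfy2 and Stmn4 stretches printed above belong to the fifth group, in which 160 of 404 Mtf2 windows (39.6%) overlapped H3K27me3. Several groups lay close together, with 98.3% of group 1 windows within 8 kb of group 2 sequence. The same held for 98.7%, 98.4%, 98.2% and 93.7% of windows in groups 3, 4, 5 and 7. The figure was 66.7% in group 9 and 0% to 2.0% in groups 6, 8, 10, 11 and 12. Of group 11 windows, 98.1% lay within 8 kb of group 6 sequence. Groups that lie together are not separate observations.

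Other groups carried Mtf2 with H3K27me3 at few copies. In group 6, 80 of 519 Mtf2 windows overlapped H3K27me3 (15.4%). The figure was 58 of 994 in group 10 (5.84%), 43 of 1316 in group 12 (3.27%) and 16 of 1168 in group 22 (1.37%). Nearly all H3K27me3 windows of these groups still met Mtf2 in groups 6, 10 and 12 (85 of 93, 64 of 69 and 48 of 50), and 19 of 25 did in group 22. Over all 34 groups, Mtf2 overlapped 54.5% (group 29, 11 windows) to 100% of the H3K27me3 windows, and H3K27me3 1.37% to 56.7% (group 21, 30 windows) of the Mtf2 windows.

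Shared peaks also more often had direct repeats nearby, meaning a pair of like stretches on the same strand 1 to 12 kb apart within 6 kb of the summit. Whether the pair flanked the summit was not measured. A pair was found at 1716 shared H3K27me3 peaks (63.2%) and 104 H3K27me3-only peaks (5.26%), and at 61.7% of shared and 32.8% of Mtf2-only peaks. Grid windows had 3.61%. The median separation at shared H3K27me3 peaks was 4944.5 bp. In the largest group, 357 of 363 windows (98.3%) had such a pair, 6726 bp apart in the median. Among Mtf2 peaks of at least 5 kb, 421 of 501 shared peaks (84.0%) and 610 of 919 Mtf2-only peaks (66.4%) had one. No repeat annotation was used here, so no repeat family is named.

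Tandem repeats as at Cdkn1a were rare. A self-match of at least 70% was found at 26 shared H3K27me3 peaks (0.957%), 37 H3K27me3-only peaks (1.87%), 25 shared Mtf2 peaks (0.986%), 487 Mtf2-only peaks (2.09%) and 0.504% of grid windows. Cdkn1a, which encodes the cell cycle inhibitor p21, had the H3K27me3 peak with the highest score, 330, with 480 tags over 8077 bp (chr17:29238121-29246197) and a fold enrichment of 12.6. The Mtf2 peak covered nearly the same bases, chr17:29237978-29246188, with 727 tags (score 453, fold 7.78), and the summits were 19 bp apart. Both summits were intergenic, 6.14 and 6.15 kb downstream of the nearest Cdkn1a TSS. It was the only autosomal H3K27me3 peak with a false discovery rate of at most 5%.

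Summit distances covered a wide range. Over the 2716 pairs the median distance was 370.5 bp (95% interval of the median 331 to 421), with quartiles of 24 and 1184 bp. Of the pairs, 444 (16.3%) lay within 10 bp, 953 (35.1%) within 100 bp, 1483 (54.6%) within 500 bp and 1930 (71.1%) within 1000 bp. The H3K27me3 summit was inside the Mtf2 peak in 2609 pairs (96.1%), and the Mtf2 summit inside the H3K27me3 peak in 1549 (57.0%). No side was favoured along the chromosome, with the Mtf2 summit at the higher coordinate in 1336 pairs, at the lower in 1360 and at the same base in 20.

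Peaks of a pair had to overlap, so their lengths limit the distance. Its median was 52 bp where the Mtf2 peak was under 1500 bp (727 pairs), 294 bp from 1500 to under 3000 bp, 756 bp from 3000 to under 5000 bp and 1435.5 bp at 5000 bp or more (656 pairs). As a percent of the Mtf2 peak's length the medians were 6.26, 13.5, 19.8 and 21.8. At summits under 10 copies the median was 29.5 bp (288 pairs, Mtf2 peaks of 960 bp in the median), and at 10 copies or more 491 bp (2428 pairs, 3281.5 bp). By sequence group it was 826 bp in group 1, 738 bp in group 5, 261 bp in group 6, 15 bp in group 10 and 12 bp in group 12. The peaks with the highest fold enrichment were among the close pairs. In an intron of Lmbr1, at 3086 copies (group 12), a Mtf2 peak of fold 71.0 and an H3K27me3 peak of fold 27.4 had summits 3 bp apart. Near Ccdc54, in single-copy DNA, the folds were 26.5 for Mtf2 and 34.0 for H3K27me3, 1 bp apart.

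**Figure D3:**
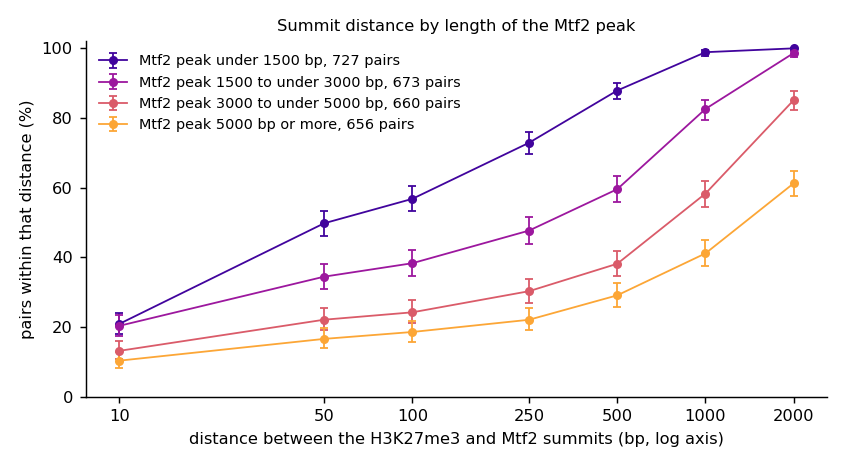
Percent of overlapping pairs (y axis) whose H3K27me3 and Mtf2 summits lie within a given distance (x axis, bp, log axis), for 4 length ranges of the Mtf2 peak, with 95% Wilson intervals as bars. Within 100 bp lie 56.8% of pairs with Mtf2 peaks under 1500 bp and 18.6% of those at 5000 bp or more.

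The classes also differed in place. Summits within 1 kb of a protein-coding TSS, called proximal promoter, made up 10.7% of H3K27me3-only peaks (211) and 0.479% of shared H3K27me3 peaks (13). The share was 0.473% of shared Mtf2 peaks (12) and 0.993% of Mtf2-only peaks (231), and 3.32% of grid points fell there. Only the H3K27me3-only class was therefore above the grid at promoters, and the other 3 were below it. Intergenic summits made up 75.0% of shared H3K27me3, 75.3% of shared Mtf2, 72.5% of Mtf2-only and 54.2% of H3K27me3-only peaks, against 56.8% of the grid. Introns held 21.3% to 23.0% in all 4 classes and 32.4% of the grid. The median distance to a TSS was 71.1 kb for shared and 21.7 kb for H3K27me3-only peaks.

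**Figure D4:**
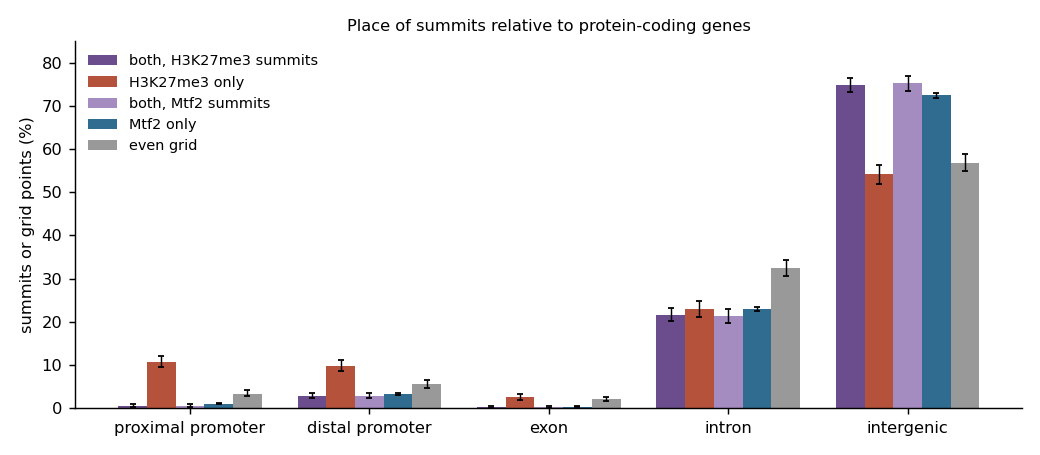
Percent of summits, or of grid points, in each place relative to protein-coding genes (y axis) for the classes and the even grid (colours), with 95% Wilson intervals as bars. H3K27me3-only peaks reach 10.7% at proximal promoters against 0.473% to 0.993% in the classes with Mtf2, and shared peaks are 75.0% and 75.3% intergenic.

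Nearness to a TSS and copy number went together. Within 5 kb of a TSS 17.7% of H3K27me3 peaks were shared, and beyond it 64.6%. At under 10 copies the shares were 37 of 572 near a TSS (6.47%, 4.73 to 8.79) and 19.5% (17.4 to 21.7) away from one. At 10 copies or more they were 83 of 105 (79.0%, 70.3 to 85.7) and 85.9% (84.5 to 87.2), and these intervals overlap. CpG island-like summits, defined by a GC content of 50% or more and a CpG observed to expected ratio of 0.6 or more in 1 kb, split more sharply. Of 147 such H3K27me3 summits at under 10 copies 3 overlapped Mtf2 (2.04%), and of 62 at 10 copies or more 60 did (96.8%). CpG island-like summits were 7.38% of H3K27me3-only, 2.32% of shared H3K27me3, 3.83% of shared Mtf2 and 2.73% of Mtf2-only peaks, and 0.756% of the grid.

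Few genes had both marks. Of 21418 autosomal protein-coding genes, a peak lay up to 5 kb from a TSS at 8.34% (1786) for Mtf2, 3.39% (725) for H3K27me3 and 0.812% (174) for both. Of the genes with H3K27me3, 24% (21.0 to 27.2) also had Mtf2, and of the genes with Mtf2 9.74% also had H3K27me3. At 145 of the 174 the peaks themselves overlapped. Taken from 5 kb upstream to 1 kb past the end, 18.2% of genes had Mtf2, 6.41% H3K27me3 and 3.51% (751) both. Of the genes with H3K27me3 in that window, 54.7% also had Mtf2.

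Genes for developmental transcription factors had H3K27me3 more often than Mtf2 within 5 kb of a TSS. Over 6 lists (Hox, Gata, LIM-homeobox, Fox, Sox and T-box, and Pax genes), 30 of 139 genes (21.6%) had an H3K27me3 peak within 5 kb, against 3.39% of all genes. A Mtf2 peak lay at 2 of the 139 (1.44%, against 8.34%), and 1 had both (against 0.812%). All 34 H3K27me3 peaks there had single-copy summits, with 16 to 39 tags (median 17), and none overlapped a Mtf2 peak. Over gene bodies, Mtf2 lay at 4 of 40 Fox, 3 of 33 Sox and T-box, 2 of 12 LIM-homeobox and 1 of 40 Hox genes. No Gata or Pax gene had it, and the share of all genes was 18.2%. With this few tags each peak was near the limit of the list. The lists were chosen with earlier results of these data known, and the counts describe these genes only.

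LIM-homeobox factors, which specify neurons and organ fields, had the largest share, with H3K27me3 at 8 of 12 (Lhx1, Lhx2, Lhx4, Lhx5, Lhx6, Lhx8, Lhx9 and Isl2). Isl2, a factor of motor and sensory neurons, had the strongest of these peaks (chr9:55390339-55391842, 39 tags, score 114, fold 12.8), with the summit 0.782 kb downstream of its TSS. Lhx1, needed for head and kidney formation, was the 1 gene of the lists with both marks, and they did not overlap. Its H3K27me3 peak at chr11:84336440-84337299 had 24 tags and a fold of 9.14, and its Mtf2 peak at chr11:84333126-84333874 had 23 tags and a fold of 6.62. Lhx2 had 2 H3K27me3 peaks of 21 and 17 tags, and the single peaks of Lhx4, Lhx5, Lhx6, Lhx8 and Lhx9 had 17 to 21 tags.

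The other factor lists had H3K27me3 at a smaller share of their genes. Gata2, which acts in blood stem cells, and Gata4 and Gata6, which act in heart and endoderm, had H3K27me3 peaks of 17 tags, of 19 and 18 tags, and of 18 tags, and no Gata gene had Mtf2. The summit of 1 Gata4 peak was CpG island-like and 0.211 kb from the TSS. Of the Pax genes, Pax6, a factor of the eye and brain, and Pax9 had 16 and 17 tags. Sox and T-box genes had H3K27me3 at 10 of 33 and the Fox genes at 5 of 40, all without Mtf2 within 5 kb. Foxl2, the ovarian factor, had 24 tags at a CpG island-like summit (it is named here after its value was seen). Of 40 Hox genes 2 had H3K27me3 (5.0%, near the 3.39% of all genes) and 1 other had Mtf2.

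Signalling lists differed among themselves. Within 5 kb of a TSS, Fgf and hedgehog genes had H3K27me3 at 7 of 35 and no Mtf2. Bmp and Tgfb genes had H3K27me3 at 4 of 46 and Mtf2 at 1 other. The shares of all genes were 3.39% and 8.34%. Over gene bodies Mtf2 lay at 5 Fgf and hedgehog and 6 Bmp and Tgfb genes, against 18.2% of all genes. Over the 4 Wnt lists, Mtf2 lay within 5 kb of a TSS at no gene, against 8.34% of all genes. H3K27me3 lay there at 4 of 72 genes (5.56%, against 3.39% of all genes). These were the ligand gene Wnt10b (16 tags), the receptor gene Fzd2 (20), the antagonist gene Kremen2 (20) and the effector gene Tcf7l1 (16), and all 4 summits were single copy. They were named because the count was small. Over gene bodies Mtf2 lay at 2 ligand, 2 receptor, 1 antagonist and 1 effector gene, against 18.2% of all genes. H3K27me3 lay over the bodies of 4, 1, 1 and 1 in that order, against 6.41%, and no gene had both. Of 10 genes for PRC2 and its accessory subunits, none had a peak of either mark within 5 kb of a TSS. Over gene bodies 1 had Mtf2 and none H3K27me3. Among PRC1 and demethylase genes within 5 kb, Cbx8 had H3K27me3 (16 tags) and Cbx7 had Mtf2 in 2 peaks (59 and 42 tags) at 255 and 184 copies. Both encode chromobox proteins that bind H3K27me3.

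The cell cycle inhibitor list had the largest share of genes with both marks. Of all genes, 3.39% had H3K27me3 within 5 kb of a TSS, 8.34% Mtf2 and 0.812% both. Of the 8 genes in the list, which are Cip/Kip and Ink4 genes and Cdkn3, 4 had H3K27me3, 3 Mtf2 and 2 both. Besides Cdkn1a these included Cdkn2a, which encodes p16Ink4a and p19Arf and is a long known Polycomb target. Its H3K27me3 peak, chr4:88930789-88931540, had 20 tags and a fold of 8.41, and the Mtf2 peak across it, chr4:88930964-88931612, had 21 tags and a fold of 9.31. Cdkn2b next to it, which encodes p15Ink4b, had H3K27me3 only (chr4:88955713-88956272, 16 tags), as had Cdkn3 (16 tags). Cdkn2d had Mtf2 only (chr9:21097933-21098879, 38 tags, fold 11.6).

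Erythroid genes were marked at shares near those of all genes. In the list of the erythroid programme, globin and heme genes, 1 of 41 had H3K27me3 (2.44%, against 3.39% of all genes) and 2 others had Mtf2 (4.88%, against 8.34%). Ank1, the ankyrin of the red cell membrane skeleton, had H3K27me3 with 16 tags. Kit, the receptor for stem cell factor, had 2 Mtf2 peaks of 86 and 42 tags, at 395 and 61 copies, and Slc25a38, a mitochondrial glycine carrier used for heme synthesis, had 2 of 29 and 28 tags at 17 and 36 copies. Of 38 stem-cell, myeloid and lymphoid factors, Gata2 and Prdm1 had H3K27me3 (17 tags each) and Hlf had Mtf2 (25 tags) within 5 kb. Over gene bodies 8 had Mtf2 and 4 H3K27me3, against 18.2% and 6.41% of all genes.

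Sensory receptor families had Mtf2 at about the share of all genes. The shares of all genes within 5 kb of a TSS were 8.34% for Mtf2, 3.39% for H3K27me3 and 0.812% for both. Olfactory receptor genes, expressed in the nose, had Mtf2 at 102 of 1081 (9.44%), H3K27me3 at 13 (1.20%) and both at 9 (0.833%). Their H3K27me3 share was thus below that of all genes, and their share with both was near it. The 9 were Olfr1055, Olfr1155, Olfr596, Olfr53, Olfr18, Olfr784, Olfr1390, Olfr165 and Olfr761. Vomeronasal receptors had 38, 4 and 2 of 319, and the 2 were Vmn1r2 and Vmn2r82. Of the 149 Mtf2 peaks at these 2 families, 120 were at 10 copies or more, about the share of all autosomal Mtf2 peaks (81.7%). The share with Mtf2 over both families was 10.0%, near the 8.34% of all genes. Neural lists did not lean to Mtf2 within 5 kb. Potassium channel genes had 6 of 93 for each mark, and Kcnj16, an inward rectifier, had both, in single-copy DNA with 20 H3K27me3 tags and 28 Mtf2 tags. Grin1, the obligate NMDA receptor subunit, was the 1 of 39 glutamate and GABA receptor genes with both, and its peaks did not overlap. Axon guidance genes had H3K27me3 at 6 of 68 and Mtf2 at 4 others. Over gene bodies, which are long in these lists, the counts were 16 for H3K27me3, 24 for Mtf2 and 10 for both in axon guidance genes. They were 17, 34 and 11 in potassium channel genes. Glutamate and GABA receptor genes had 9, 19 and 8 of 39, and cadherin and protocadherin genes 8, 17 and 6 of 33. For Mtf2 these last 2 lists reached 48.7% and 51.5%. Of all genes, 6.41% had H3K27me3 over gene bodies, 18.2% Mtf2 and 3.51% both. Of 33 cadherin and protocadherin genes, Pcdh12 had H3K27me3 and Cdh23 had Mtf2 within 5 kb.

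**Figure D5:**
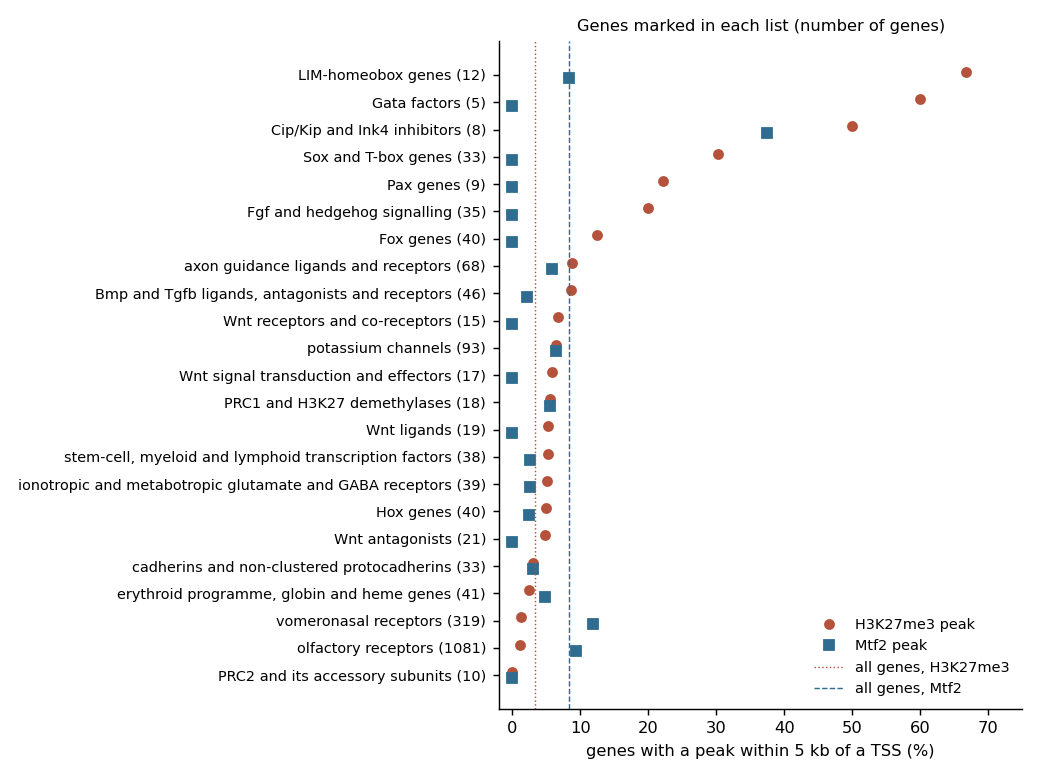
Percent of the genes of each list marked within 5 kb of a TSS (x axis) for H3K27me3 (circles) and Mtf2 (squares), with the number of genes in brackets and lines at the values of all genes (3.39% and 8.34%). The LIM-homeobox list has 8 of 12 genes with H3K27me3 and 1 of 12 with Mtf2, and the olfactory receptors 13 and 102 of 1081.

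Promoters with both marks were few, and so were those with either. Of 21418 genes, peaks reached within 1 kb of a TSS at 292 for H3K27me3, 426 for Mtf2 and 25 for both. These were Abcb5, Adc, Ankrd13b, Cdk5rap1, Chd2, Eps8l1, Extl1, Gm17579, Gm7354, Hapln4, Hmox2, Hspa1a, Hspa1b, Hspa1l, Klk1b22, Nipal3, Npdc1, Olfr761, Pemt, Qrsl1, Sgsh, Stx18, Suclg2, Trem1 and Wdr66. None of them is a member of the factor lists above.

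Some of these promoters were single copy. Chd2, a chromatin remodeller gene, had an H3K27me3 peak at chr7:80606471-80607420 with 27 tags and a fold of 17.1, inside a Mtf2 peak at chr7:80606293-80607430 with 42 tags and a fold of 16.6. Npdc1 had 24 tags for each mark, with folds of 16.4 for H3K27me3 and 9.31 for Mtf2. Hapln4, which encodes a link protein of the neural extracellular matrix, had 22 H3K27me3 tags and 21 Mtf2 tags at a CpG island-like summit. At Trem1, a receptor gene of myeloid cells, the marks had 23 and 26 tags.

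Others lay in repeated or duplicated DNA. Hspa1a and Hspa1b, neighbouring genes that encode near-identical heat shock proteins, had CpG island-like summits at 2 copies. Hspa1a had 17 H3K27me3 tags and 77 Mtf2 tags, and Hspa1b had 42 and 70. Reads from one could be placed at the other, so the 2 genes are not separate observations. Hmox2, a heme oxygenase gene, had 3 H3K27me3 peaks of 37, 18 and 23 tags and 2 Mtf2 peaks of 197 and 49 tags, all at 489 copies or more.

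The strongest peaks of a single mark had these values. The Mtf2-only peak with the highest score, near Sntb1 at chr15:56007209-56014752, had 433 tags (score 1590, fold 20.2) at 595 copies, 269.9 kb from the nearest TSS. In an intron of Klhdc4, a Mtf2-only peak of 336 tags lay in a tandem repeat with a period of 51 bp and a self-match of 99.4%. All 8 Mtf2-only peaks of highest score were over 5 kb long and at 60 copies or more. The H3K27me3-only peak with the highest score, near Mal2 at chr15:54360201-54360397, was 197 bp long with 16 tags and a score of 148. It lay at 228 copies and had an FDR of 12.9%. The next ones included a peak of 37 tags between Fam171a2 and Itga2b, the platelet integrin gene (chr11:102311856-102313138, score 116), and the Isl2 promoter.

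The classes were also looked up in the other lists of the series. Those lists were called against other IgG libraries, at other depths, and had 1 library each. In the order used below they held 4456, 4771, 1331 and 5129 autosomal peaks. Summits at 10 copies or more made up 3.77%, 84.0%, 8.49% and 73.2% of them, against 89.4% of shared H3K27me3 peaks. The third list, from Pcl2-/- CD71+Ter119-/lo cells, covered 1.12 Mb. The part of list size and copy number in the overlaps below was not tested. The H3K27me3 list of WT CD71+Ter119high cells, the later erythroblast fraction, overlapped 260 H3K27me3-only peaks (13.1%, 11.7 to 14.7) and 28 shared H3K27me3 peaks (1.03%, 0.714 to 1.49). The Mtf2 list of that fraction did the reverse, with 17 H3K27me3-only (0.859%) and 590 shared H3K27me3 peaks (21.7%). It overlapped 773 shared Mtf2 peaks (30.5%) and 1881 Mtf2-only peaks (8.08%). The H3K27me3 list of Pcl2-/- CD71+Ter119-/lo cells overlapped 15 H3K27me3-only peaks (0.758%) and none of the 2716 shared H3K27me3 peaks. A count of 0 here still permits 0.110%. The H3K27me3 list of Pcl2-/- CD71+Ter119high cells overlapped 21 shared H3K27me3 peaks (0.773%, 0.506 to 1.18) and 21 H3K27me3-only peaks (1.06%, 0.695 to 1.62), with overlapping intervals.

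The shares varied between chromosomes. The share of H3K27me3 peaks that were shared ran from 37.0% on chromosome 19 (37 of 100) and 44.6% on chromosome 11 to 65.5% on chromosome 8. For Mtf2 peaks it ran from 7.91% on chromosome 19 to 12.3% on chromosome 8. Chromosome 19 also had the fewest Mtf2 peaks per length, 76.3 per 10 Mb, against 119 on chromosome 14.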

How the data were processed

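Peak lists of the WT CD71+Ter119-/lo Mtf2 and H3K27me3 libraries were used. The authors used Bowtie2 2.2.3 for alignment (mm9) and MACS 1.3.7 for peak calling against 1 IgG library (p cutoff 1e-05, band width 300, model fold 32, tag size 25, per the file headers). The file names in the headers refer to a masked genome and removal of blacklisted regions. Treatment of multi-mapping reads and pooling of replicates are not given in the sources used here. The deposited tag counts are reads per peak, not normalized. In the deposited lists the score is 10 times the negative log10 of p. Fold enrichment in the deposited lists is a ratio of ChIP over local IgG background. The FDR is deposited as a percent, from peaks of IgG called over ChIP. A masked or duplicated region can lose or gain tags, and a deeper library gives more peaks, so values were compared within a list only.

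From these, overlaps (at least 1 base), summit distances, places and genes were computed on the 19 autosomes with GENCODE M1 on NCBIM37 (21418 protein-coding genes, 67153 TSS). Each summit took the first place that applied: 1 kb around a TSS (proximal promoter), 5 kb upstream (distal promoter), exon, intron, or intergenic. Copy number was the median count of every 20th 25-base word (49 words) in 1 kb around the summit. Intervals are 95% Wilson intervals of shares and order-statistic intervals of medians, and cover counting error only. With 1 library per condition, no test was run. PCR copies are not separate molecules. The steps were tested on simulated intervals and sequences. Sequence was read with pysam 0.24.0, tables with pandas 2.3.3 and numpy 2.4.6, statistics with scipy 1.17.1 and plots with matplotlib 3.10.9, in Python 3.11.15.

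The members and gene lists were chosen with earlier results of these data known. The text names the 8 peaks of highest score and the 3 of highest fold enrichment in each class, by the nearest TSS, as far as they are described, the genes of the lists with both marks, all marked genes of lists of at most 12 genes, and the genes with both marks within 1 kb of a TSS. Other named genes were chosen after their values were seen, as were the sequence groups, direct repeats, tandem repeats and copy-number comparison. Alternatives were other overlap rules, peak limits, windows and annotations. The IgG libraries have no peak list. A further gene list is not reported here.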

Additional observations from a re-analysis of the deposited data

How the results depend on the processing

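Of 93 alternative values for 36 results, 42 stayed within the interval of the value reported and 51 moved. The share of H3K27me3 peaks that met Mtf2 was 33.0% when the Mtf2 summit had to lie inside the peak, 41.6% with 500 bp on either side of each summit, 36.2% with lists of equal length, 87.6% at a score of at least 100 and 100% of 1 peak at an FDR of at most 5%. The share of Mtf2 peaks was 9.30% with 50% overlap, 11.4% within 1 kb, and 9.19%, 7.65%, 30.7%, 1.87% and 0.00388% in the order of settings just given. The median summit distance was 478 bp between peak centres, 267 bp in one-to-one pairs and 497.5 bp at a score of at least 100. Proximal promoter shares (shared H3K27me3, shared Mtf2, Mtf2 only, H3K27me3 only) were 1.33%, 1.07%, 2.11% and 18.4% with 2 kb. With all annotated genes the first 3 were 1.95%, 1.81% and 2.23%, and intergenic shares were 71.4%, 71.9%, 68.4% and 49.8%. At a score of at least 100 the last 3 promoter shares were 0%, 0.605% and 8.0%. CpG island-like shares over whole peaks were 3.13%, 1.07% and 1.77% for the first 3 classes, and at a score of at least 100 4.92%, 5.49% and 0% for the last 3. Genes with both, Mtf2 only and H3K27me3 only numbered 25, 401 and 267 within 1 kb, and 17, 569 and 9 at a score of at least 100. Over gene bodies 751 had both and 3155 Mtf2 only. The cause of these shifts was not tested beyond the shorter lists or wider windows themselves.

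The following alternatives were chosen after seeing the data. At a score of at least 100, summits at 10 copies or more made up 93.5% of shared H3K27me3, 95.9% of shared Mtf2, 95.6% of Mtf2-only and 26.7% of H3K27me3-only peaks. With 100 or 500 words in common in place of 250, sequence groups held 87.9% or 43.2% of shared and 15.9% or 0.606% of H3K27me3-only H3K27me3 peaks.

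No paired analysis was possible because each condition had 1 library, which also left no replicate to leave out. Depth limits single H3K27me3 peaks, whose median was 19 tags in the H3K27me3-only class, and absence of a Mtf2 peak says only that the threshold was not reached.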

Other observations

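On the X chromosome, left out of all counts above, 213 of 285 H3K27me3 peaks (74.7%, 69.4 to 79.4) overlapped Mtf2, and 203 of 3046 Mtf2 peaks (6.66%) overlapped H3K27me3. On the Y chromosome 10 of 12 H3K27me3 peaks did.

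The H3K27me3 lists of the series differed in how much repeated DNA they held. Summits at 10 copies or more made up 60.4% of the WT CD71+Ter119-/lo list, 3.77% of the WT CD71+Ter119high list, 8.49% of the Pcl2-/- CD71+Ter119-/lo list and 73.2% of the Pcl2-/- CD71+Ter119high list. Both Mtf2 lists were high, at 81.7% in CD71+Ter119-/lo and 84.0% in CD71+Ter119high cells. Each list had 1 library and each fraction and genotype its own IgG library, so these values are of libraries and not of conditions.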
